A study of Mus musculus with 6 samples.

Results

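Nrf2, the transcription factor encoded by Nfe2l2, was followed together with its regulators Keap1 and Bach1 and 7 of its classical target genes, Nqo1, Hmox1, Gclc, Gclm, Txnrd1, Srxn1 and Slc7a11. The 10 genes were picked by name, and each symbol matched 1 of the 24469 loci for which messenger RNA was measured by RNA-Seq as FPKM, fragment numbers scaled by transcript length and library size. The 6 libraries came from MPCs, a conditionally immortalized mouse podocyte line used at passages 10 to 15, grown with interferon gamma at 33 °C and differentiated without it for 10 days at 37 °C. The growth medium held 5.5 mM glucose. All cells were starved of serum for 12 h and all were then held in high glucose (HG, 25 mM) for 12 h. In the HG group (n = 2) nothing was added before the glucose. In the other groups (n = 2 each) the cells first received, for 1 h, 100 ng/mL of rFGF1WT, recombinant wild-type FGF1, or of rFGF1ΔHBS, an FGF1 variant with a mutated heparan sulfate-binding site and weaker mitogenic activity. The comparisons ask what pretreatment with either form of FGF1 did to the Nrf2 genes in podocytes then held in HG, and whether the forms differed. Libraries in normal glucose were not analysed here, so no effect of HG itself was measured. The labels do not say whether the 2 libraries of a group came from separate cultures, so the p-values measure only the spread between these libraries, which may be technical.

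Nrf2 is held at a low level by Keap1, an adaptor that brings it to a Cul3 ubiquitin ligase, and oxidants or electrophiles that modify cysteines of Keap1 let newly made Nrf2 escape degradation. GSK-3 and the β-TrCP adaptors form another degradation route. In the nucleus Nrf2 pairs with a small Maf protein on the antioxidant response element (ARE), a site that Bach1 can occupy as a repressor. The target genes supply quinone reduction, glutathione, the thioredoxin system, heme breakdown and iron storage, and in the kidney this programme is known for limiting oxidant injury. Since most control of Nrf2 acts on the protein, a messenger level of Nfe2l2 is not a measure of Nrf2 activity.

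Libraries of 1 group correlated at 0.916 to 0.923 (Pearson, log2(FPKM + 1) over tested loci) and libraries of different groups at 0.895 to 0.924. Each library held about 22300000 to 23200000 fragments, as estimated from the step of 1 fragment in the FPKM. Of the 9 podocyte markers found, 5 were tested and none passed the threshold. With each form of FGF1, 3 of these 5 were higher than in HG and 2 lower (median log2 difference 0.27 with rFGF1WT and 0.18 with rFGF1ΔHBS). Synpo, an actin-associated podocyte protein, read 9.58 and 10.2 FPKM in HG against 4.01 to 6.83 FPKM in the 4 FGF1 libraries, with no overlap (0.477 and 0.589 times HG, adjusted p = 0.0787 and 0.131, unadjusted p = 0.00735 and 0.0222, limma). Nphs1, the slit diaphragm protein nephrin, was at 0.618 to 0.942 FPKM and Wt1 was at 0.0104 to 0.0731 FPKM. The line therefore carried the podocyte label with little of these 2 defining transcripts. The 9 podocyte markers found summed to 169.5 and 163.3 FPKM in HG and to 184.7 to 199.5 FPKM in the 4 FGF1 libraries. Most of that sum came from markers other than Synpo, Nphs1 and Wt1, and it was not lower with FGF1. Endothelial markers were all below the filter (0 of 5 tested), and among leukocyte markers Cd68 stood at 50.1 to 67.3 FPKM while Ptprc, which all leukocytes carry, was at 0.0144 to 0.0548 FPKM. Cd68 rose with both proteins (1.25-fold and 1.302-fold, adjusted p = 0.0496 and 0.0363, limma), and the part of this and the other markers in the results was not tested. Of the mesangial and fibroblast markers 2 of 6 were tested and of the tubule markers 1 of 4, and none passed. The 2 mesangial and fibroblast markers went opposite ways, 1 higher and 1 lower than HG with each protein (median log2 difference 0.0020 and 0.022). Pdgfrb read 31.8 and 32.7 FPKM in HG against 26.1 to 27.5 FPKM with FGF1 (adjusted p = 0.0795 and 0.0756, unadjusted p = 0.00750 and 0.00729), and Lrp2 read 28.5 and 26.9 FPKM against 22.2 to 24.0 FPKM (adjusted p = 0.0766 and 0.102, unadjusted p = 0.00695 and 0.0138). The treatments left a clear mark: Spry4, a feedback inhibitor of FGF signalling, read 0.0568 and 0.0590 FPKM in HG, 1.69 and 1.48 FPKM with rFGF1WT, and 1.58 and 1.69 FPKM with rFGF1ΔHBS. The FGF target Dusp6 read 2.96 and 3.67 FPKM in HG against 9.38 to 26.3 FPKM in the 4 FGF1 libraries, a difference that did not pass the test (adjusted p = 0.179 and 0.0882, limma). Of 8 FGF response genes, 4 were called higher with rFGF1WT and 3 with rFGF1ΔHBS (50% and 37.5%, beside 3.26% and 3.37% of all tested loci). With each protein 7 of the 8 were higher than in HG and 1 lower, with a median log2 difference of 1.06 for rFGF1WT and 1.35 for rFGF1ΔHBS. Of 8 housekeeping genes, 1 was called higher with rFGF1WT (12.5%) and 0 with rFGF1ΔHBS. Their median log2 difference was 0.12 and −0.038. Their summed FPKM was 2762 and 2642 in HG, 3362 and 3261 with rFGF1WT, and 2927 and 3336 with rFGF1ΔHBS.

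The ARE core, TGACNNNGC, was looked for on both strands of the 300 bases around each gene's start (250 before, 50 after; RefSeq, GRCm38.p6), since it is the element through which Nrf2 and Bach1 meet these genes. Promoter entries were found for 8 of the 10 genes, and 4 of those 8 held the core, as did 3781 of all 27025 genes (14.0%). These 4 are printed, 5′ to 3′ in the direction of the gene, with the core in capitals. Maff is added because it is a DNA-binding partner of Nrf2 whose messenger rose with both proteins. In Nfe2l2 the core began 240 bases before the start, on the strand of the gene, and in the Maff start shown (1 of 3 in RefSeq, the others without the core) 112 bases before it. In Gclm and in the Txnrd1 start shown (1 of 3 in RefSeq) it lay on the opposite strand, 134 and 92 bases before the start. In Srxn1 it began 28 bases after the start, also on the opposite strand. The windows of Keap1, Bach1, Nqo1 and Slc7a11 held no such letters, which says nothing of elements further away. A match is a description of the sequence and not evidence of binding.
Nfe2l2 (chr2:75704614-75704913, minus strand): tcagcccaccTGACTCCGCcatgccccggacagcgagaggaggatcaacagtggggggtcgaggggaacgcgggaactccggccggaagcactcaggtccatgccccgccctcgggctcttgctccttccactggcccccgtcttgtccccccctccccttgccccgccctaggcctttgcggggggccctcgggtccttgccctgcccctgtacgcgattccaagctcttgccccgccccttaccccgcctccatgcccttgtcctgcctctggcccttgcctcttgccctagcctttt
Txnrd1 (chr10:82858956-82859255, plus strand): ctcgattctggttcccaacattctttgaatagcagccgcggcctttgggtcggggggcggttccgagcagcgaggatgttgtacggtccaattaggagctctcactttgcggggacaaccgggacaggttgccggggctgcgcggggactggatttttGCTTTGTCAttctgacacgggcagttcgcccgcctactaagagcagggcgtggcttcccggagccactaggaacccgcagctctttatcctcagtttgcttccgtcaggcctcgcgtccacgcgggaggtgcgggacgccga
Gclm (chr3:122245307-122245606, plus strand): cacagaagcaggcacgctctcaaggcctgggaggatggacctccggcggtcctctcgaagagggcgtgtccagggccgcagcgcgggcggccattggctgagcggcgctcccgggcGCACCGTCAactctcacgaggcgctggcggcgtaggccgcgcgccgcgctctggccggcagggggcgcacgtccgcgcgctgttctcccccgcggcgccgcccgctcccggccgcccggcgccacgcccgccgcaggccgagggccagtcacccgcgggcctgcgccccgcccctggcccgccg
Srxn1 (chr2:152105274-152105573, plus strand): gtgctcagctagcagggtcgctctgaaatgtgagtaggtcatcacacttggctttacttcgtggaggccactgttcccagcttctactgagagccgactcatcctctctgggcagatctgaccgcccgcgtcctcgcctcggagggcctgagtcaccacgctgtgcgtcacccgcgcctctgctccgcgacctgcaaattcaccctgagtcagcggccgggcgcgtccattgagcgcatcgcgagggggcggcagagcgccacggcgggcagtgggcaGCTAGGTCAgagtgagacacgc
Maff (chr15:79346371-79346670, plus strand): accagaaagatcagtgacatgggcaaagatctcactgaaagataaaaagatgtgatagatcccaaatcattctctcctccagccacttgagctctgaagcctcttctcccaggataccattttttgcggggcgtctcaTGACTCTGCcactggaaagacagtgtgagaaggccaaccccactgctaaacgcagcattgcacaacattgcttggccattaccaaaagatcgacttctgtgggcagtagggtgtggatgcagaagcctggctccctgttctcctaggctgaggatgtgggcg

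Nfe2l2 was the only one of the 10 genes whose rise passed the threshold, and it passed with both forms of FGF1. Txnrd1 and Nqo1 also lay higher in all 4 FGF1 libraries than in both HG libraries, without passing. The Nfe2l2 locus (GRCm38 chr2:75675513-75704641, minus strand, 2 transcripts) read 28.5 and 31.7 FPKM in HG, 41.2 and 42.0 FPKM with rFGF1WT, and 42.7 and 42.8 FPKM with rFGF1ΔHBS. All 4 FGF1 libraries lay above both HG libraries, and the rFGF1ΔHBS libraries lay just above the rFGF1WT libraries. The mean rose from 30.1 ± 2.20 FPKM in HG (SD, n = 2) to 41.6 ± 0.578 FPKM with rFGF1WT, 1.38 times the HG level, and to 42.8 ± 0.0855 FPKM with rFGF1ΔHBS, 1.42 times. On the log2(FPKM + 1) scale the difference was 0.46 ± 0.065 (SE, adjusted p = 0.0360, limma) for rFGF1WT and 0.49 ± 0.065 (adjusted p = 0.0302) for rFGF1ΔHBS. Both rises were short of the 2-fold limit that the study set for differential expression. Both calls were narrow: with any 1 of the 6 libraries left out the adjusted p was 0.0588 to 0.132 for rFGF1WT and 0.0575 to 0.113 for rFGF1ΔHBS, and without the filter on low FPKM it was 0.0638 and 0.0541. In whole-culture RNA a higher level per cell and more cells of an expressing type cannot be told apart.

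The regulators Keap1 and Bach1 did not pass the test in any comparison. Keap1 (chr9:21229730-21239361, minus strand, overlapped on the other strand by the antisense gene Gm16754) read 9.73 and 9.16 FPKM in HG, 8.42 and 8.66 FPKM with rFGF1WT, and 8.12 and 11.04 FPKM with rFGF1ΔHBS. The rFGF1WT libraries lay below the HG libraries, whereas the rFGF1ΔHBS libraries lay on either side of them. The log2 difference from HG was −0.13 (95% interval −0.53 to 0.27) with rFGF1WT and 0.0047 (−0.39 to 0.40) with rFGF1ΔHBS.

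Bach1 (chr16:87698945-87733346, plus strand), the repressor at AREs, spread more widely inside groups than Keap1. It read 6.10 and 14.1 FPKM in HG, 10.5 and 10.6 FPKM with rFGF1WT, and 5.48 and 11.1 FPKM with rFGF1ΔHBS. Both rFGF1WT libraries fell between the HG libraries. The log2 difference from HG was 0.16 (−1.13 to 1.46) with rFGF1WT and −0.22 (−1.52 to 1.07) with rFGF1ΔHBS, so that changes of over 2-fold in either direction were within the interval. Leaving out single libraries moved these values from −0.38 to 0.71 and from −0.77 to 0.32. The direction with rFGF1WT turned without HG library 1 (−0.38), and with rFGF1ΔHBS it turned without HG library 2 (0.32) or without rFGF1ΔHBS library 1 (0.23).

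**Figure D1:**
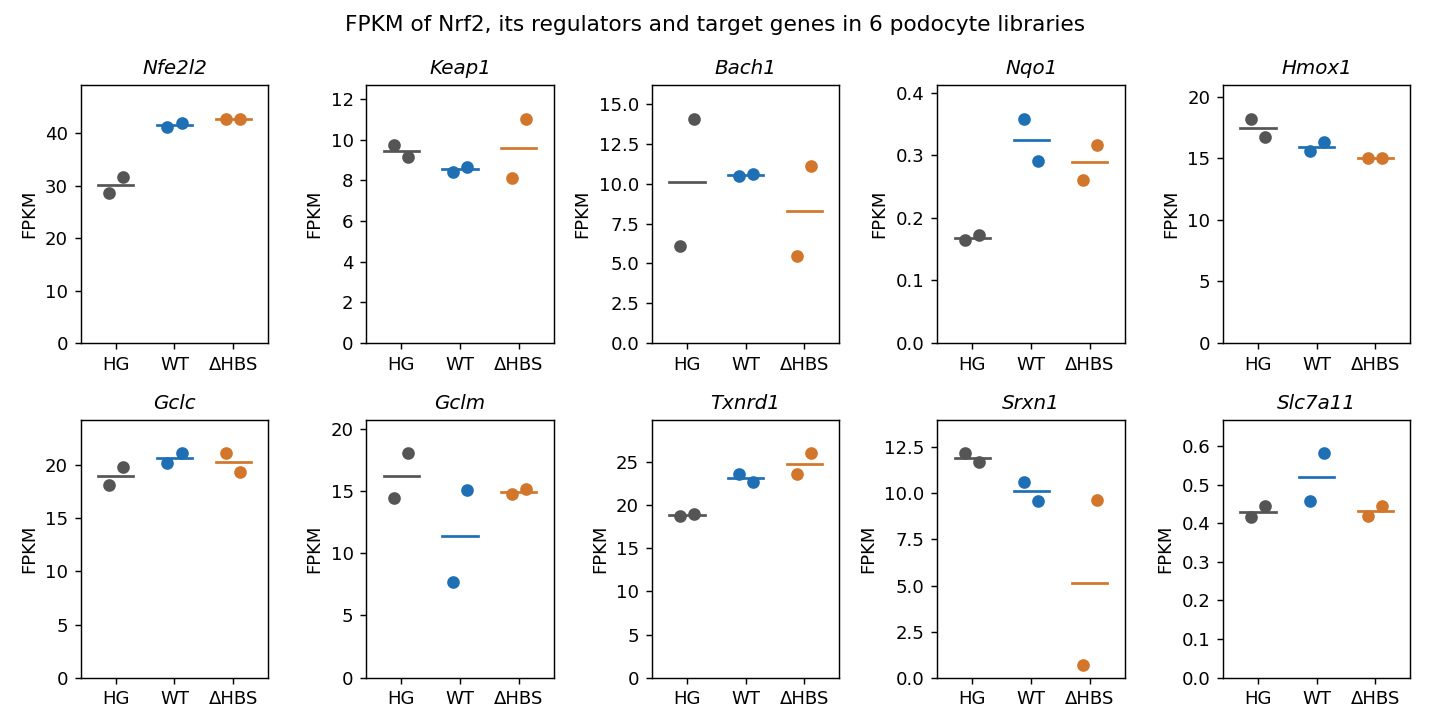
FPKM of the 10 genes (y axis, from 0, each panel with its own scale) in each library (points) of the HG, rFGF1WT (WT) and rFGF1ΔHBS (ΔHBS) groups, with the group mean as a line (n = 2). Nfe2l2, Txnrd1 and Nqo1 lie higher in all 4 FGF1 libraries than in both HG libraries, Srxn1 has 1 library at 0.671 FPKM, and Nqo1 and Slc7a11 stay below 0.6 FPKM.

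Across the 10 genes Nfe2l2 had the highest level per length, with a mean of 38.2 FPKM over the 6 libraries, and its lowest library lay above the highest library of Txnrd1 (mean 22.3 FPKM). Gclc (19.99 FPKM), Hmox1 (16.2 FPKM) and Gclm (14.2 FPKM) came next, and each of these overlapped its neighbours over the libraries. Bach1 (9.66 FPKM), Keap1 (9.19 FPKM) and Srxn1 (9.07 FPKM) overlapped one another as well. Slc7a11 (0.460 FPKM) and Nqo1 (0.261 FPKM) stood far below, under the filter at a mean of 1 FPKM, and did not overlap each other.

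Nqo1, the quinone reductase most often read as an Nrf2 target, was hardly expressed in this line. The locus (chr8:107388225-107403206, minus strand, 6 exons) read 0.165 and 0.172 FPKM in HG, 0.359 and 0.291 FPKM with rFGF1WT, and 0.261 and 0.317 FPKM with rFGF1ΔHBS. Each FGF1 library exceeded both of HG, and the ratio of mean FPKM to HG was 1.93 for rFGF1WT and 1.71 for rFGF1ΔHBS. In terms of fragments these levels are small, about 5.88 and 5.99 in the HG libraries, 12.4 and 10.2 with rFGF1WT, and 9.42 and 11.1 with rFGF1ΔHBS, estimated from the FPKM and the size of the 1-fragment step. For 6 fragments an exact Poisson 95% interval runs from 2.20 to 13.1, which covers counting error only. As Nqo1 was below the filter, it was tested in the fit without a filter, where neither difference passed (log2 difference 0.18, adjusted p = 0.168, and 0.14, adjusted p = 0.239, limma; unadjusted p = 0.0113 and 0.0263). With a pseudocount of 0.1 in place of 1, which shrinks low genes less, the log2 differences were 0.66 and 0.53, and these did not pass either (adjusted p = 0.313 and 0.423).

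Of the genes for glutathione supply, Gclc encodes the catalytic and Gclm the modifier subunit of glutamate-cysteine ligase, and Slc7a11 the cystine carrier. None passed the test. Gclc (chr9:77754535-77794485, plus strand) read 18.2 and 19.9 FPKM in HG, 20.2 and 21.1 FPKM with rFGF1WT, and 21.1 and 19.4 FPKM with rFGF1ΔHBS. The log2 difference from HG was 0.12 (95% interval −0.087 to 0.32) with rFGF1WT and 0.087 (−0.12 to 0.29) with rFGF1ΔHBS, so the interval leaves out an increase as large as that of Nfe2l2 in the same libraries, 0.46 and 0.49.

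Gclm (chr3:122245557-122270732, plus strand, overlapped by Gm6061 on the same strand and Gm17494 on the other) read 14.4 and 18.0 FPKM in HG, 7.67 and 15.1 FPKM with rFGF1WT, and 14.7 and 15.1 FPKM with rFGF1ΔHBS. A single rFGF1WT library was low and the other lay within the HG range. The log2 difference with rFGF1WT was −0.53 (−1.40 to 0.33, adjusted p = 0.387) and came to −0.088 without that library. Slc7a11 (chr3:49892526-50443614, minus strand) read 0.415 and 0.444 FPKM in HG, 0.458 and 0.581 FPKM with rFGF1WT, and 0.419 and 0.445 FPKM with rFGF1ΔHBS. Only the rFGF1WT libraries lay above those of HG, by 0.087 in log2(FPKM + 1) (adjusted p = 0.609 in the fit without a filter), and with rFGF1ΔHBS the levels overlapped those of HG.

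In the thioredoxin system neither of the 2 genes passed the test. Txnrd1 (chr10:82833951-82897712, plus strand), thioredoxin reductase, read 18.8 and 19.0 FPKM in HG, 23.6 and 22.7 FPKM with rFGF1WT, and 23.6 and 26.0 FPKM with rFGF1ΔHBS. All 4 FGF1 libraries lay above HG, at 1.23 and 1.31 times the mean HG level. The log2 difference was 0.28 ± 0.066 (SE, adjusted p = 0.0949) and 0.38 ± 0.066 (adjusted p = 0.0537), and neither passed. For rFGF1ΔHBS the adjusted p was 0.0454 with the filter at 5 FPKM, 0.0440 after median-ratio scaling and 0.0474 after quantile normalization, and with any 1 library left out it was 0.0878 to 0.178. Txnrd1 holds the gene Eid3 on the same strand, and fragments of the latter may be counted with it.

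Srxn1 (chr2:152105516-152111376, plus strand), sulfiredoxin, which restores over-oxidized peroxiredoxins, read 12.2 and 11.7 FPKM in HG, 10.6 and 9.58 FPKM with rFGF1WT, and 0.671 and 9.63 FPKM with rFGF1ΔHBS. The low value stood in rFGF1ΔHBS library 1 alone, and the other 5 libraries spanned 9.58 to 12.2 FPKM, with all 4 FGF1 libraries below both HG libraries. The log2 difference of rFGF1ΔHBS from HG was −1.62 (−4.05 to 0.82, adjusted p = 0.360), and this value was decided by 1 library. Without rFGF1ΔHBS library 1 it was −0.28 (adjusted p = 0.240), and without rFGF1ΔHBS library 2, which leaves only the low one, it was −2.95 (adjusted p = 0.0177, the lone library assumed to vary like the rest). Drops of this kind were not confined to Srxn1: at 156 of the 10562 tested loci (1.48%) the lowest library was under 10% of the next lowest.

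Hmox1 (chr8:75093621-75100589, plus strand), heme oxygenase 1, is induced through AREs once Bach1 leaves them. It read 18.2 and 16.7 FPKM in HG, 15.6 and 16.3 FPKM with rFGF1WT, and 15.1 and 15.0 FPKM with rFGF1ΔHBS. The 4 FGF1 libraries all lay below both HG libraries, at 0.912 and 0.860 times the mean HG level. The log2 difference was −0.13 (95% interval −0.30 to 0.047, adjusted p = 0.321) with rFGF1WT and −0.20 (−0.38 to −0.031, adjusted p = 0.152, unadjusted p = 0.0297) with rFGF1ΔHBS. Neither passed, and an increase of the size seen for Nfe2l2 lay outside both intervals.

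Of the 8 genes that passed the filter, 1 was thus called with rFGF1WT and 1 with rFGF1ΔHBS, and the gene was Nfe2l2 both times. Over all 10562 tested loci, 6.19% were called with rFGF1WT (3.26% higher) and 6.26% with rFGF1ΔHBS (3.37% higher), so 1 of 8 does not set the group apart. None of the 8 passed the 2-fold limit in addition, which 1.01% and 0.899% of loci passed. At an unadjusted p under 0.05 (limma), 2 of 8 were higher and 0 lower with rFGF1WT, and 2 higher and 1 lower with rFGF1ΔHBS. The share of all tested loci at that limit was not counted, so whether these numbers set the group apart cannot be said. Groups did not overlap for 6 of 8 genes with rFGF1WT (3 higher, 3 lower) and for 4 of 8 with rFGF1ΔHBS (2 higher, 2 lower), against 58.2% and 57.3% of all tested loci. For 2 of 8, Nfe2l2 and Txnrd1, all 4 FGF1 libraries exceeded both HG libraries, against 17.1% of loci, and for another 2, Hmox1 and Srxn1, all 4 lay below both, against 25.5% of loci. The median log2 difference of the 8 was −0.0048 with rFGF1WT and −0.050 with rFGF1ΔHBS, beside −0.040 and −0.036 for all tested loci. These comparisons share the HG libraries, and a low or high HG value moves both.

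**Figure D2:**
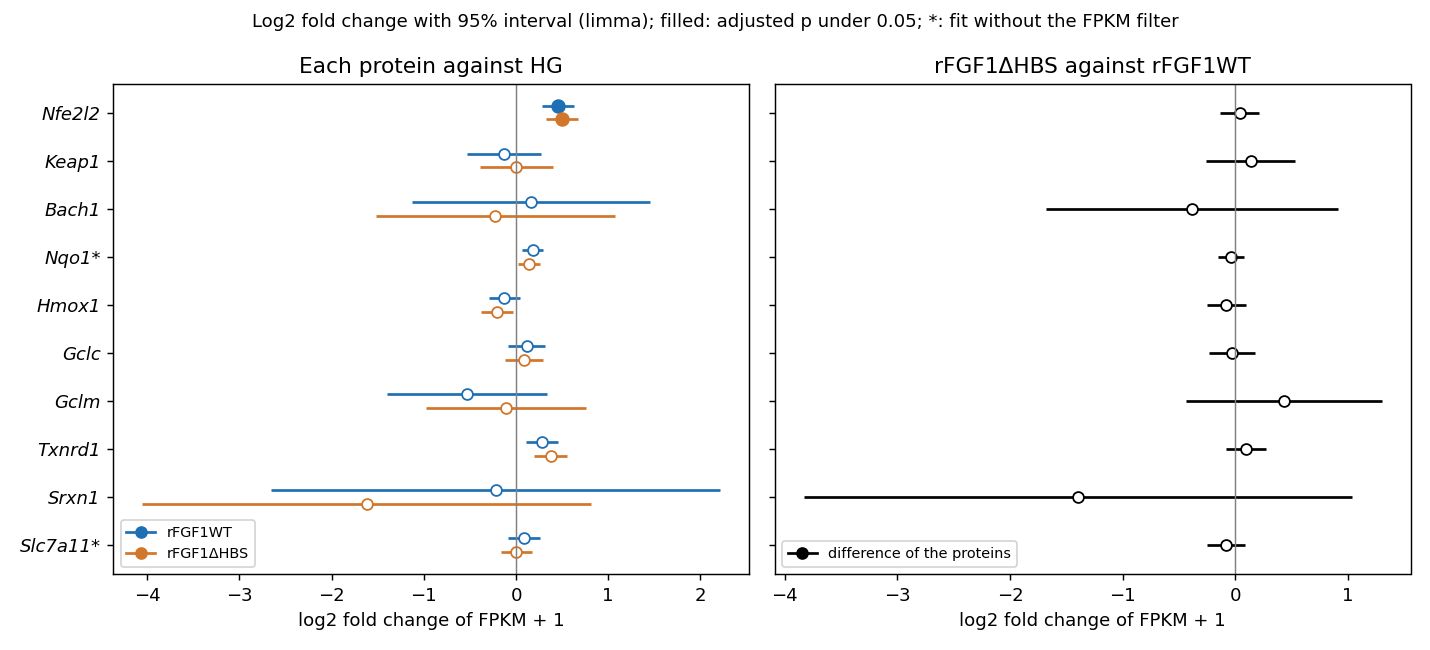
Log2 fold change of FPKM + 1 (x axis) with its 95% interval from limma for each gene (rows), on the left for rFGF1WT and rFGF1ΔHBS against HG and on the right for rFGF1ΔHBS against rFGF1WT; filled points have an adjusted p under 0.05, and asterisks mark genes taken from the fit without a filter. Nfe2l2 has the only filled points (0.46 and 0.49), and the intervals of Bach1, Gclm and Srxn1 are several times wider than that of Nfe2l2.

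The proteins differ in the heparan sulfate-binding site, and at the same dose and times none of the 10 genes differed between them by the test (adjusted p of at least 0.905, limma, 10 genes compared and adjusted over all loci). No gene reached an unadjusted p under 0.05 either. For Nfe2l2 the log2 difference of rFGF1ΔHBS from rFGF1WT was 0.039 with an interval of −0.13 to 0.21. For Hmox1 it was −0.079 (−0.25 to 0.094), for Gclc −0.029 (−0.23 to 0.17), for Txnrd1 0.094 (−0.084 to 0.27) and for Keap1 0.14 (−0.26 to 0.53). In Bach1 (−0.39, −1.68 to 0.91), Gclm (0.43, −0.44 to 1.299) and Srxn1 (−1.40, −3.83 to 1.04) the intervals span more than 2-fold in at least 1 direction, so these libraries could not show whether the proteins act alike there. The Srxn1 value came to −0.062 without rFGF1ΔHBS library 1 and to −2.73 (adjusted p = 0.02498) without library 2. Over all tested loci 0.549% were called between the proteins and 0.35% passed 2-fold as well. Groups did not overlap for 2 of the 8 tested genes, Nfe2l2 (higher with rFGF1ΔHBS) and Hmox1 (lower), against 34.5% of loci.

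Of 22 further symbols for partners and regulators of Nrf2, 20 were found and 18 were tested. With each form of FGF1 the same 2, Maff and Atf4, were called higher and none lower (11.1% of 18, beside 6.19% and 6.26% of all tested loci). At an unadjusted p under 0.05 (limma), 4 were higher and 2 lower with rFGF1WT, and 3 were higher and 1 lower with rFGF1ΔHBS. How many of all tested loci reached that limit was not counted, so nothing is read from these numbers. Maff, a small Maf protein that binds DNA with Nrf2, read 1.35 and 1.71 FPKM in HG, 5.41 and 5.46 FPKM with rFGF1WT, and 4.70 and 4.95 FPKM with rFGF1ΔHBS. Its FGF1 libraries all lay far above both HG libraries, and the mean rose 3.55-fold with rFGF1WT and 3.16-fold with rFGF1ΔHBS (log2 difference 1.35, adjusted p = 0.0114, and 1.21, adjusted p = 0.0142, limma). The calls were lost without either rFGF1WT library in the first comparison (adjusted p = 0.0554 and 0.0539) and without either rFGF1ΔHBS library in the second (0.0634 and 0.0687).

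Atf4, a stress-response factor that acts with Nrf2 on amino acid and glutathione genes, read 77.1 and 85.4 FPKM in HG, 120.0 and 124.2 FPKM with rFGF1WT, and 128.1 and 116.9 FPKM with rFGF1ΔHBS. It rose 1.502-fold and 1.507-fold (log2 difference 0.58 and 0.59, adjusted p = 0.0308 and 0.0308), with no overlap between the FGF1 and HG libraries. With any 1 library left out the adjusted p was 0.0647 to 0.125 and 0.0757 to 0.109. The most abundant members of the other regulator lists did not pass. These were Nfe2l1, a relative of Nrf2 (30.0 to 35.0 FPKM, log2 difference −0.090 and −0.17), Sqstm1, the p62 protein that sequesters Keap1 (135.7 to 163.3 FPKM, −0.10 and −0.16), and Skp1a, a subunit of the β-TrCP ligase (42.8 to 66.1 FPKM, −0.38 and −0.12). Gsk3b, singled out after its values were seen because the kinase it encodes marks Nrf2 for degradation, read 25.3 and 25.4 FPKM in HG, 20.6 and 22.0 FPKM with rFGF1WT, and 5.73 and 22.8 FPKM with rFGF1ΔHBS. Its low value was in the same library as that of Srxn1, and neither comparison passed (adjusted p = 0.844 and 0.376). Gsk3a, which encodes the other GSK-3, read 28.7 and 29.2 FPKM in HG, 30.5 and 29.3 FPKM with rFGF1WT, and 28.6 and 27.5 FPKM with rFGF1ΔHBS. Of the 6 tested genes of the GSK-3 and β-TrCP route, 2 were higher and 4 lower than HG with rFGF1WT. With rFGF1ΔHBS 1 was higher and 5 lower, and none of the 6 passed with either protein. The median log2 difference of the 18 regulators was −0.098 with rFGF1WT and −0.062 with rFGF1ΔHBS. Between the proteins none of the 18 passed, and none had an unadjusted p under 0.05.

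Of 46 symbols for other Nrf2 target genes, 44 were found and 34 were tested. With rFGF1WT 3 were called higher and 1 lower, and with rFGF1ΔHBS 3 higher and 1 lower. This is 11.8% of 34 in each comparison, beside 6.19% and 6.26% of all tested loci. At an unadjusted p under 0.05 (limma), 7 were higher and 4 lower with each protein. The share of all tested loci at that limit was not counted, so nothing is read from these numbers. The genes called higher were Gsr, Gstm2, Fth1 and Ephx1, and the gene called lower, Slc40a1, encodes the iron exporter ferroportin. Gsr, glutathione reductase, read 40.7 and 41.1 FPKM in HG, 52.3 and 51.2 FPKM with rFGF1WT, and 51.4 and 52.7 FPKM with rFGF1ΔHBS. It rose 1.27-fold with each protein (log2 difference 0.33 and 0.34, adjusted p = 0.0299 and 0.0286). Gstm2, a glutathione transferase of a family with near-identical copies, read 20.5 and 20.1 FPKM in HG, 26.3 and 26.0 FPKM with rFGF1WT, and 26.8 and 26.7 FPKM with rFGF1ΔHBS. Its rise was 1.29-fold and 1.32-fold (adjusted p = 0.0291 and 0.0248), and how the authors' counting split reads among Gstm copies is unknown. For both genes the FGF1 libraries lay apart from HG by far more than the spread within a group.

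Fth1, the ferritin heavy chain that stores iron, read 685.2 and 653.2 FPKM in HG, 825.3 and 809.8 FPKM with rFGF1WT, and 780.1 and 791.5 FPKM with rFGF1ΔHBS. It rose 1.22-fold with rFGF1WT (adjusted p = 0.0343) and was 1.17 times the HG level with rFGF1ΔHBS (adjusted p = 0.0518). Over 9 other settings of the fit the adjusted p of Fth1 (limma) ran from 0.0234 to 0.374 with rFGF1WT. With rFGF1ΔHBS it ran from 0.0365 to 0.490. Ftl1, the ferritin light chain, named after its values were seen, lay the other way, at 434.1 and 392.5 FPKM in HG, 317.3 and 308.8 FPKM with rFGF1WT, and 284.0 and 340.03 FPKM with rFGF1ΔHBS. It was at 0.757 and 0.755 times HG with no overlap and did not pass (adjusted p = 0.117 and 0.109, unadjusted p = 0.0172 and 0.0157). Ephx1, microsomal epoxide hydrolase, was measured as the locus Gm36961;Ephx1, so its values may include fragments of Gm36961. The locus read 22.6 and 23.6 FPKM in HG, 27.2 and 26.6 FPKM with rFGF1WT, and 28.9 and 29.4 FPKM with rFGF1ΔHBS. It rose 1.26-fold with rFGF1ΔHBS (adjusted p = 0.0413) and was at 1.16 times HG with rFGF1WT (adjusted p = 0.0955). Neither Fth1 nor Ephx1 differed between the proteins (adjusted p = 0.905 for both), so their calls with a single protein do not tell the proteins apart. Slc40a1 read 5.25 and 4.77 FPKM in HG, 2.51 and 2.37 FPKM with rFGF1WT, and 2.42 and 2.35 FPKM with rFGF1ΔHBS. It fell to 0.487 and 0.477 times the HG level (log2 difference −0.80 and −0.82, adjusted p = 0.0172 and 0.0179). These calls, too, were lost when any 1 library was left out (adjusted p from 0.0536 for Slc40a1 to 0.149 for Fth1).

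The most abundant tested gene of each remaining group did not pass in any comparison. Gstm1 read 229.7 to 294.1 FPKM, with log2 differences from HG of 0.043 and 0.30 (adjusted p = 0.748 and 0.0908), and rFGF1ΔHBS lay above rFGF1WT by 0.26 (adjusted p = 0.798, unadjusted p = 0.0185). The peroxiredoxin Prdx1 read 113.7 and 119.1 FPKM in HG and 134.0 to 151.4 FPKM in the FGF1 libraries, with no overlap (0.32 and 0.21, adjusted p = 0.0618 and 0.1197). Tkt, transketolase of the NADPH-supplying pentose phosphate pathway, read 63.1 to 82.5 FPKM (0.0026 and −0.11), and Abcc4, an export pump, read 28.3 to 42.2 FPKM (0.083 and 0.34). The Tkt values are those of the locus Tkt;Mir3076. The median log2 difference of the 34 targets was 0.071 with rFGF1WT and 0.041 with rFGF1ΔHBS, beside −0.040 and −0.036 for all loci. Between the proteins none of the 34 passed, and 1, Gstm1, had an unadjusted p under 0.05. The ARE core was in the promoter windows of 11 of 35 target genes with an entry (31.4%) and of 3 of 19 regulators (15.8%), beside 14.0% of all genes.

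**Figure D3:**
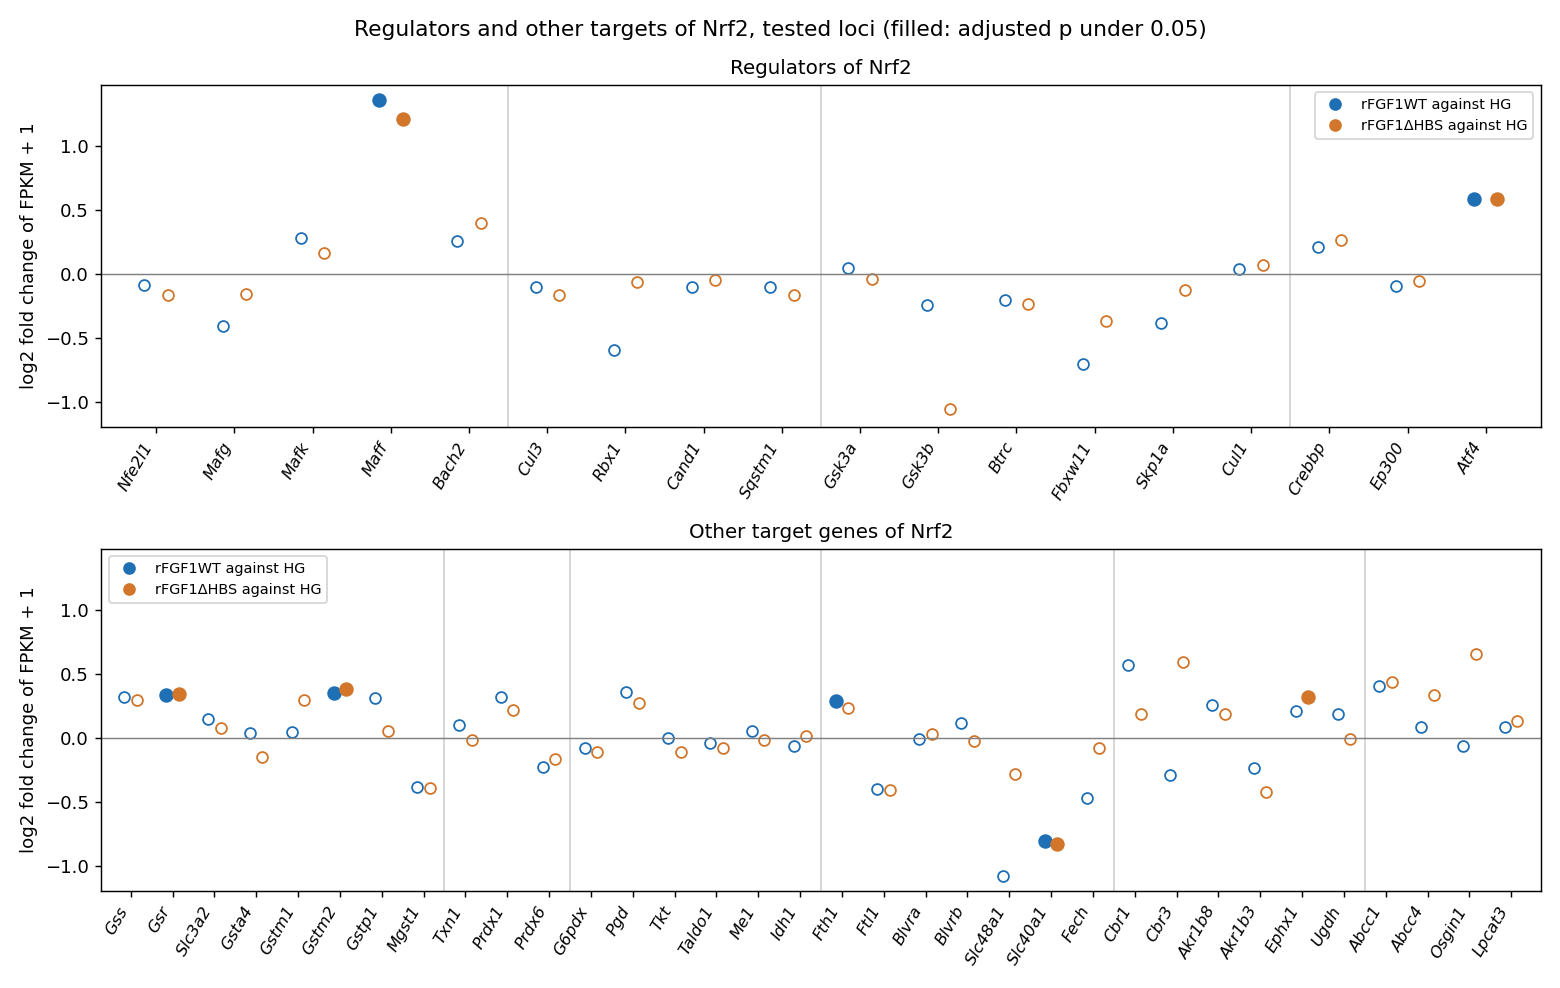
Log2 fold change of FPKM + 1 (y axis) against HG for the 18 tested regulators (upper panel) and 34 other tested targets of Nrf2 (lower panel), with rFGF1WT in blue and rFGF1ΔHBS in orange; filled points have an adjusted p under 0.05 and grey lines divide the functional groups. Maff and Atf4 above, and Gsr, Gstm2 and Slc40a1 below, are filled for both proteins, Fth1 for rFGF1WT and Ephx1 for rFGF1ΔHBS, and the other points are open.

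Over the 6 libraries, the 3 loci whose log2(FPKM + 1) followed that of Nfe2l2 most closely, among 4441 loci with a mean of at least 10 FPKM, were Fbl, the nucleolar methyltransferase fibrillarin (Pearson's r = 0.999), the locus Arhgef17;Mir3102 (r = 0.996) and Mlkl, the effector of necroptosis (r = 0.996). Fbl read 9.04 and 9.81 FPKM in HG, 12.7 and 13.1 FPKM with rFGF1WT, and 13.3 and 13.2 FPKM with rFGF1ΔHBS. A pattern of this kind was common, as 450 of the 4441 loci had r over 0.9, and the 6 points share 3 groups, so the correlations are a description with no test.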

How the data were processed

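Messenger RNA was measured in 6 poly(A) paired-end libraries of MPCs, in 3 groups of 2 taken from the labels. The authors deposited a table of FPKM per locus, which gives no coordinates, and the reads were not used here. The submitters' processing notes name Bowtie 0.12.2, HISAT2 2.0, StringTie 1.3.0 and the build mm8, with no roles given, and whether strand was used is not given in the sources used here. Fragments of paralogs and of overlapping genes may therefore be divided in unknown ways.

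Values were tested as log2(FPKM + 1), which understates changes of low genes, with limma 3.58.1 (R 4.3.3, trend) in 1 fit of all 6 libraries, over 10562 loci with a mean of at least 1 FPKM. The 3 comparisons shared 3 residual degrees of freedom, and p-values were adjusted by Benjamini-Hochberg over these loci (threshold 0.05, and 2-fold as the study's added limit). Nqo1 and Slc7a11 came from the same fit without the filter. A permutation of 2 against 2 libraries cannot go below 0.333, so none was used. The fit was tested on simulated data.

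Positions were taken from GENCODE M21 (GRCm38) through Ensembl transcripts (78602 of 78903 found), and promoters from RefSeq. Depth was estimated from the FPKM step of 1 fragment at single-transcript loci, with 47.3% to 50.0% of such low loci on the step. Python 3.11.15 was used for tables and plots.

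The members and gene lists were chosen with earlier results of these data known. Named genes were the 10 members, every listed regulator or target with an adjusted p under 0.05 in any comparison, the most abundant tested gene of each list, marker examples and the 3 loci most like Nfe2l2. Alternatives covered the pseudocount, filter, zeros, scaling, libraries fitted, robust variances, summed loci, a replicate block and each library left out.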

Additional observations from a re-analysis of the deposited data

How the results depend on the processing

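With 2 libraries per group, every call of Nfe2l2 and of the wider lists rested on a shared and small estimate of the spread, and the cause of the lost calls was not tested. Of the 10 genes, 1 was called against HG with each protein. With rFGF1WT this count was 0 without a filter, with only the 4 libraries compared and with the replicate number as a block. With rFGF1ΔHBS it was 0 under the same settings and 2 with the filter at 5 FPKM, after median-ratio scaling and after quantile normalization, through Txnrd1. For the wider targets, 4 with each protein became 0 with the 4 libraries compared and 0 with the replicate block. For the regulators, 2 with each protein became 1 without a filter, 1 with the filter at 5 FPKM (which removes Maff) and 1 after quantile normalization, 1 (rFGF1WT) and 0 (rFGF1ΔHBS) with the 4 libraries compared, and 0 with the replicate block. Leaving out 1 library gave 0 (rFGF1WT) and 0 to 1 (rFGF1ΔHBS) of the 10 genes, 0 to 1 and 0 wider targets and 0 to 1 regulators. The 1 gene with rFGF1ΔHBS was Srxn1, without rFGF1ΔHBS library 2, and it passed 2-fold as well (0 to 1). Between the proteins these ranges were 0 to 1 for the 10 genes, with and without 2-fold, for the wider targets and for the regulators.

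The replicate numbers did not pair the libraries. Deviations of same-numbered libraries correlated at −0.021, 0.098 and −0.047, so the block took degrees of freedom, and Nfe2l2 had an adjusted p of 0.0887 and 0.0819 with it (limma).

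Of 288 values of the 10 genes under 10 other settings, 279 kept their direction and side of the threshold, 6 lost and 3 gained a call, and 0 turned direction. Of 180 values with 1 library left out, 13 turned. Against HG the ranges were −0.38 to 0.71 (Bach1) with rFGF1WT, and −0.77 to 0.32 (Bach1), −0.20 to 0.21 (Keap1), −0.26 to 0.048 (Gclm) and −0.012 to 0.017 (Slc7a11) with rFGF1ΔHBS. Between the proteins they were −0.84 to 0.067 (Bach1), −0.066 to 0.34 (Keap1), −0.087 to 0.030 (Gclc) and −0.015 to 0.88 (Gclm). Among the other named genes, none of them called in the comparison concerned, the ranges were −0.045 to 0.13 (Gstm1), −0.14 to 0.14 (Tkt) and −0.14 to 0.30 (Abcc4) with rFGF1WT, −0.25 to 0.029 (Tkt) with rFGF1ΔHBS, and, between the proteins, −0.062 to 0.069 (Atf4), −0.0088 to 0.027 (Gsr), −0.12 to 0.0025 (Sqstm1), −0.25 to 0.022 (Tkt) and −0.050 to 0.0080 (Slc40a1). Quantile normalization turned Tkt with rFGF1WT (−0.043) and Fth1 between the proteins (0.098), and median-ratio scaling turned Atf4 between the proteins (−0.0027).

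Depth limits Nqo1, at about 6 to 12 fragments per library, and Slc7a11 more than the other genes.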
